A study of Mus musculus with 9 samples.

Results

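Old mice given an inhibitor of pyruvate dehydrogenase kinase 4 were set against young mice, to see what of the age difference in the lung remained after treatment and what was new after it. The comparison took 6 of the 9 RNA sequencing libraries of the series, 3 labelled Young and 3 labelled PDK4-IN, found by the names of their count columns in 2 deposited tables that were joined by gene identifier. The third group (Aged, 3 libraries, vehicle) is given beside them where it shows whether a level remained at the aged value. All mice were wild type C57BL/6J, and the labels call them males. Young mice carried no stated treatment and their age is not given for these libraries in the sources used here. The PDK4-IN mice aged naturally to 20 months, received PDK4-IN, an anthraquinone derivative, once every 2 weeks for 4 months and were examined at 24 months, as were the Aged mice. Cells of the lung alveolus, described as mainly fibroblasts, were lifted from frozen sections by laser capture microdissection and combined before RNA extraction. The labels tie no library to an animal, so libraries of a group may share animals. The p-values then rest on how far the libraries of a group differ, which may be technical variation, and may be too small.

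Pyruvate dehydrogenase links glycolysis to the tricarboxylic acid cycle by turning pyruvate into acetyl-CoA. Its 4 kinases (Pdk1 to Pdk4) switch it off, so that more pyruvate leaves as lactate, and Pdk4 is known to rise with fasting, fatty acid use and glucocorticoids. Fibroblasts make the collagen and elastic fibres of the alveolar wall, and can turn into contractile myofibroblasts that carry smooth muscle actin. Senescent fibroblasts stop dividing, raise inhibitors of the cell cycle and release cytokines, proteases and growth factors, together called the senescence-associated secretory phenotype (SASP).

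Library totals were 19456303 to 26660364 counts, and 22715 to 23311 genes had a count in the Young libraries against 24252 to 24395 in the PDK4-IN libraries. Of the fibroblast markers, Col1a1 stood at a mean of 3091 CPM (a gene's share of the library total, scaled to 1000000 counts) in Young, but Tcf21, Inmt and Pi16, markers of resident lung fibroblasts, were at most 0.514, 0.0505 and 0.593 CPM in any library, and Sftpc, the defining marker of type 2 alveolar cells, was at most 0.301 CPM. Xist, transcribed from the inactive X chromosome of females, stood at 114 to 235 CPM and the Y-linked Ddx3y at 31.0 to 47.7 CPM in all 9 libraries, although the labels name males. Young replicate 3 and PDK4-IN replicate 1 stood apart from the other libraries of their groups. The chi-square per degree of freedom was 17.2 and 17.5 between Young replicate 3 and the others against 2.93 between replicates 1 and 2, and 8.61 and 15.8 between PDK4-IN replicate 1 and the others against 4.88 between replicates 2 and 3. The biological coefficient of variation was 10.4% in Young and 9.53% in PDK4-IN but 3.59% in Aged, so each comparison was fitted on its own 6 libraries.

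Of 15541 genes tested, 3255 (20.9%) differed between PDK4-IN and Young at an adjusted p under 0.05 (edgeR quasi-likelihood test, Benjamini-Hochberg), 1494 (9.61%) higher and 1761 (11.3%) lower after treatment. At least a 2-fold change was seen in 356 of the higher genes (2.29% of all tested) and 301 of the lower genes (1.94%), and the median log2 fold change (PDK4-IN over Young, as throughout) over all tested genes was 0.02. For scale, Aged against Young called 40.4% of 16123 genes (21.4% higher, 19.0% lower) and PDK4-IN against Aged 49.6% of 16275 (23.9% higher, 25.7% lower). The number of calls rested on the libraries. Without Young replicate 3 there were 2244 higher and 2703 lower genes, without Young replicate 1 there were 689 and 833, without Young replicate 2 there were 722 and 867, without PDK4-IN replicate 2 there were 637 and 801, and without PDK4-IN replicate 3 there were 765 and 964. Without both libraries that stood apart, 3408 genes were higher and 3965 lower. The ranges given for gene lists without single libraries cover 6 fits that each left out 1 library, and their low ends came without Young replicate 1 or 2 or PDK4-IN replicate 2 or 3. Counts of list members called against Young are to be set beside the 9.61% higher and 11.3% lower of all tested genes.

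Genes called in the same direction against Young in both old groups are what remained of the age difference. They numbered 817 higher (5.32% of 15343 genes tested in both comparisons) and 827 lower (5.39%), with 252 (1.64%) and 80 (0.521%) changed at least 2-fold in both. Genes called in the same direction against both Young and Aged are counted as new after treatment. They numbered 639 higher (4.15% of 15400) and 959 lower (6.23%), with 31 (0.201%) and 155 (1.01%) changed at least 2-fold in both. The paired comparisons share libraries (Young in the first case, PDK4-IN in the second), so these counts are a description and carry no test. A gene can count in both classes, since new genes were not required to be unchanged between Aged and Young. Leaving out single libraries gave 453 to 1086 and 475 to 1374 for what remained and 213 to 1184 and 381 to 1592 for what was new, in each case highest without Young replicate 3 and lowest without PDK4-IN replicate 2 or, for remaining lower genes, Young replicate 1. Without both libraries that stood apart they were 1219 and 1711 for what remained and 2319 and 2514 for what was new. By the 2-fold counts, most of the large remaining differences were higher and most of the large new ones were lower. The comparisons behind the classes were skewed in the same way. At 2-fold, Aged against Young had 1504 genes higher and 272 lower, and PDK4-IN against Aged had 224 higher and 1228 lower.

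**Figure D1:**
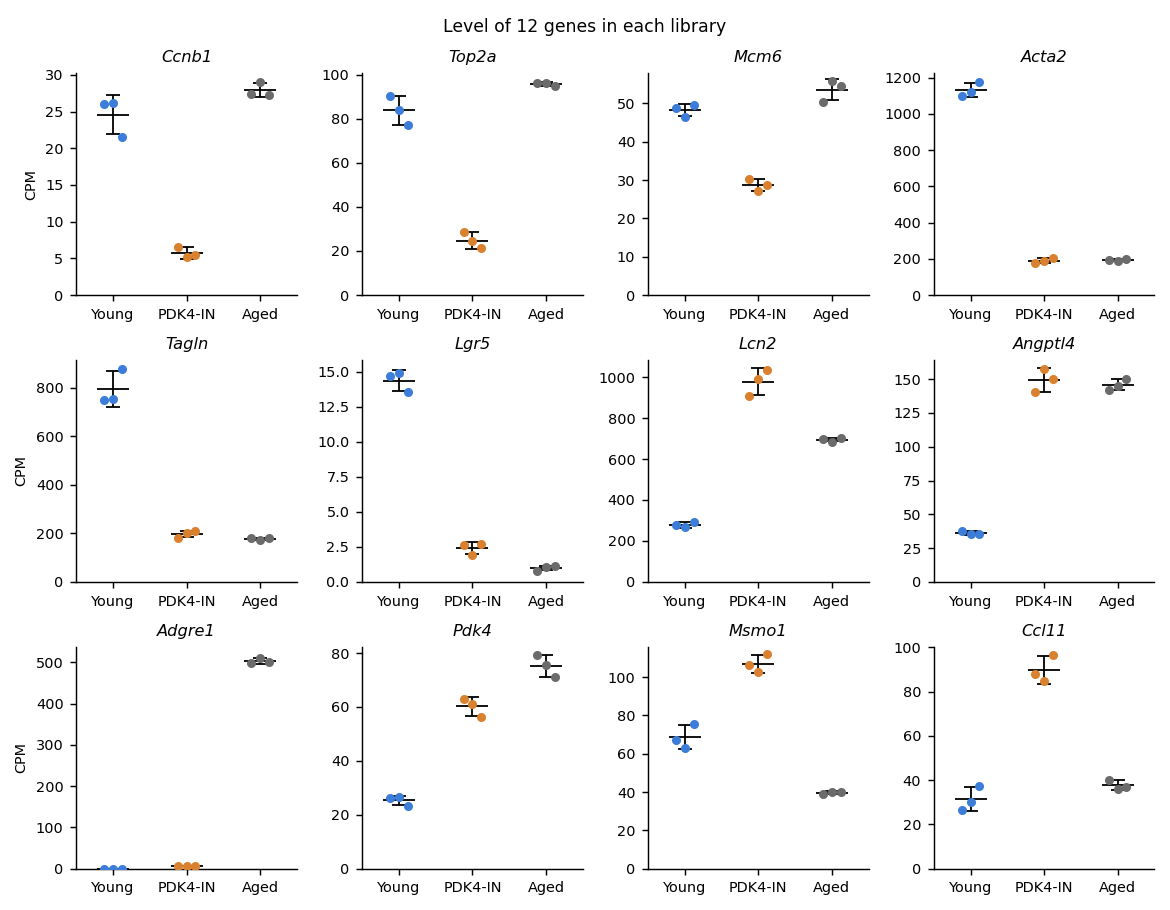
Level of 12 genes in CPM (linear axes from 0) in each of the 3 Young, 3 PDK4-IN and 3 Aged libraries; points are libraries, and bars give the mean and SD of 3. Ccnb1, Top2a and Mcm6 were lowest in PDK4-IN, Acta2 and Tagln were low in both old groups, and Adgre1 lay at 503.7 CPM in Aged against 7.67 in PDK4-IN and 0.350 in Young.

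New after treatment was a fall of genes for cell division. All 34 tested genes of a mitosis list (cyclins, kinases and spindle proteins) fell in PDK4-IN against Young, with a median log2 fold change of -1.58, while in Aged against Young 4 rose and none fell (median 0.08). Against Aged, too, 34 of 34 were lower. The Young and PDK4-IN libraries did not overlap for any of the 34 genes, against 38.3% of all tested genes. All 34 passed in each alternative fit of this comparison, including those that left out a library, with medians from -1.70 to -1.56, while a 2-fold minimum was not applied to lists. Summed over the list, the level was 772 to 881 CPM in Young, 273 to 292 CPM in PDK4-IN and 889 to 900 CPM in Aged.

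Ccnb1, the cyclin that drives entry into mitosis with Cdk1, stood at 26.1, 26.1 and 21.6 CPM in the Young libraries and at 6.598, 5.12 and 5.49 CPM in the PDK4-IN libraries. The Aged libraries had 27.5, 29.0 and 27.3 CPM, so that PDK4-IN alone was low. Its log2 fold change was -2.12 ± 0.13 (SE; adjusted p = 1.8e-05) against Young and -2.27 ± 0.10 against Aged. Top2a, the topoisomerase that untangles chromosomes, gave 90.5, 83.8 and 77.2 CPM in Young, 28.4, 24.6 and 21.1 in PDK4-IN and 96.4, 96.4 and 94.6 in Aged. Its level after treatment was lower than in Young in all libraries (-1.79 ± 0.11, adjusted p = 1.9e-05). Mki67, the proliferation marker Ki-67, stood at 55.5, 51.7 and 38.0 CPM in Young, 15.8, 12.7 and 11.9 in PDK4-IN and 63.7, 62.5 and 69.2 in Aged. It was thus lower after treatment (-1.87 ± 0.15, adjusted p = 8.6e-05) and higher in Aged (0.42 ± 0.12, adjusted p = 0.017) than in Young. The kinetochore protein Cenpf fell by 2.38 on the log2 scale. Outside the list, Aspm of the spindle pole fell by 2.15, Depdc1a by 2.14 and Iqgap3, a scaffold protein, by 1.93. The spindle midzone protein Prc1 fell by 2.10, the spindle assembly protein Hmmr by 2.09, the cytokinesis protein Anln by 2.03, the mitotic kinase Plk1 by 2.01 and Ube2c, the ubiquitin-conjugating enzyme of the anaphase-promoting complex, by 1.90.

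These genes share short letters in their promoters. Late cell cycle genes are known to carry TTTGAA, the core of the cell cycle genes homology region through which the DREAM complex represses them in resting cells, and CCAAT, the site of the factor NF-Y. RefSeq promoter windows (250 bases before to 50 after the start, build GRCm38.p6) matched 29 of the 34 mitosis genes, and 23 of these (79.3%) held TTTGAA on either strand, against 12.3% of the 11392 tested genes with a window and 18.1% of all 27025 windows. CCAAT was found on either strand in 24 of the 29 (82.8%), against 39.0% and 37.9%, and 21 (72.4%) held both, against 5.21% and 7.12%. The 2 motifs can share no more than an end base, and a match is a description of letters, not of binding. Only the first window of each gene was used, and genes on 1 chromosome were left out of those shown. Among the others, the 100 bases before the start are shown for the 5 mitosis genes with both motifs there that fell most. They are read 5′ to 3′ on the gene's strand, with TTTGAA and CCAAT or their reverse complements in capitals, and lie at chr2:164769829-164769928 (plus strand) for Ube2c, chr19:37376282-37376381 (plus) for Kif11, chr11:99024190-99024289 (minus) for Top2a, chr4:118437344-118437443 (minus) for Cdc20 and chr10:69352913-69353012 (minus) for Cdk1.
Ube2c: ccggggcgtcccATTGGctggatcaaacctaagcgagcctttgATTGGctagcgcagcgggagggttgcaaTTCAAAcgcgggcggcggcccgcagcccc
Kif11: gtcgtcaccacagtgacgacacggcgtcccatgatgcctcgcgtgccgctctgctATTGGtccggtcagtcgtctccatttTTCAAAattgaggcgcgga
Top2a: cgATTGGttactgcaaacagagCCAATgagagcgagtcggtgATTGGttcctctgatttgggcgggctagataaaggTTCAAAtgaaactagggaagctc
Cdc20: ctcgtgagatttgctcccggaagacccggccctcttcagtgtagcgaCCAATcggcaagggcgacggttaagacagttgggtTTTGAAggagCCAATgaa
Cdk1: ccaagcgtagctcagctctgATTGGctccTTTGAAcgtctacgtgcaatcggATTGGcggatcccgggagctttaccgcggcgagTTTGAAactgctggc
In these 5 the TTTGAA nearest to the start began 15 to 29 bases before it, downstream of at least 1 CCAAT.

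Genes that copy DNA fell too, with a median nearer to 0. Of 38 tested genes for DNA replication, 29 fell and none rose against Young (median -0.66), and leaving out a library gave 23 to 28. In Aged against Young 3 fell and none rose (median -0.02), so the fall was again seen after treatment. Pola1, the catalytic subunit of DNA polymerase alpha, stood at 20.0, 17.8 and 17.5 CPM in Young and 7.72, 5.42 and 6.97 in PDK4-IN (-1.48 ± 0.14, adjusted p = 0.00015). Mcm6, a subunit of the replicative helicase, had 48.8, 46.5 and 49.5 CPM in Young, 30.3, 27.2 and 28.7 in PDK4-IN and 50.5, 55.9 and 54.5 in Aged (-0.77 ± 0.07 against Young, adjusted p = 0.00018). E2F factors, which drive these genes, bind TTTGGCGC and TTTCCCGC, and either 8-mer (both strands, free to share end bases with the other motifs) was found in 10 of 31 windows of the list (32.3%), 1 of 29 mitosis windows (3.45%) and 2.87% of the tested genes' windows. TTTGAA was in 4 of the 31 (12.9%). Of the listed genes outside the chromosome left out above, only Mcm6 fell and held such an 8-mer within the 100 bases before the start. Its window is shown at chr1:128359706-128359805 (minus strand) with the match in capitals.
Mcm6: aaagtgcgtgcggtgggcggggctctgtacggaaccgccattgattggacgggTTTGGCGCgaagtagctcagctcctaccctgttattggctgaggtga
Of 34 replication-dependent histone genes tested, 3 were higher and 1 lower (median 0.13; 0 to 5 and 0 to 2 without single libraries).

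**Figure D2:**
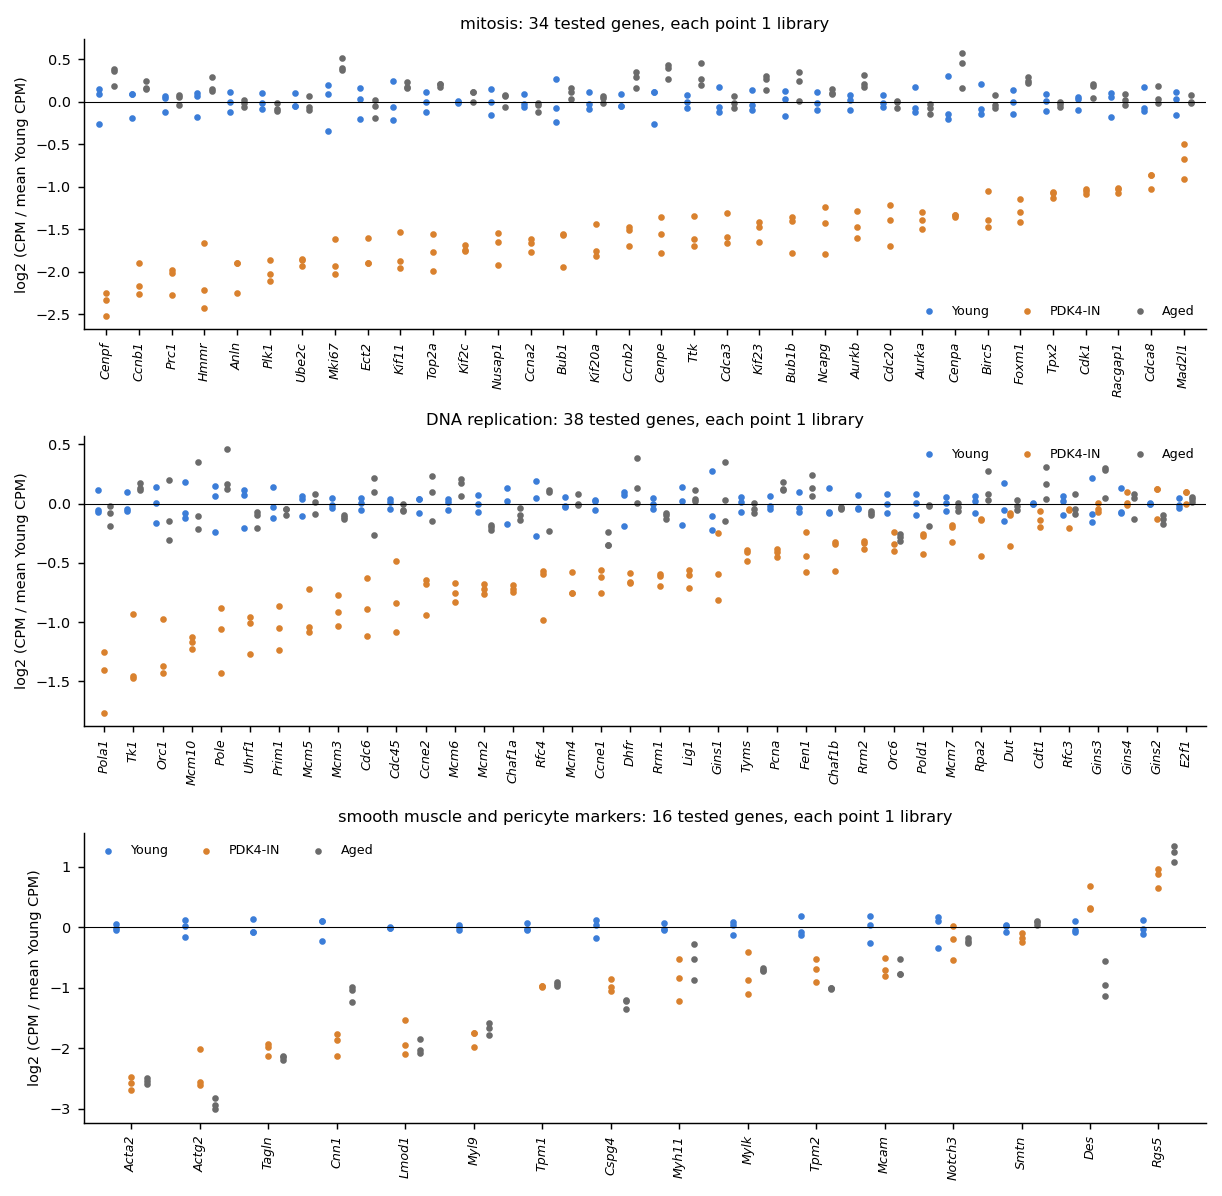
Log2 ratio of each library's CPM to the mean CPM of Young for the tested genes of 3 lists; each point is 1 library, coloured by group. All 34 mitosis genes lay below Young in PDK4-IN, while none was called lower in Aged. The replication genes fell less, and most smooth muscle and pericyte genes lay low in PDK4-IN and Aged alike, while Rgs5 lay above Young in both and Des in PDK4-IN.

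Contractile genes were among those that remained lower. Of 16 tested smooth muscle and pericyte markers, 12 fell and 1 rose in PDK4-IN against Young (median -0.92; 9 to 14 fell without single libraries). In Aged against Young 13 fell and 1 rose of 17 tested (median -0.95), and between PDK4-IN and Aged 3 were higher and 3 lower of 16 (median -0.01). Summed over the list, the level was 3905 to 4206 CPM in Young, 1472 to 1532 in PDK4-IN and 1450 to 1489 in Aged. In bulk RNA of this kind, fewer cells of a type and less RNA per cell cannot be told apart.

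Acta2, smooth muscle actin, stood at 1100, 1124 and 1175 CPM in Young, 176, 190 and 203 in PDK4-IN and 194, 188 and 201 in Aged. The treated and the vehicle libraries overlapped, and both lay far below Young (-2.60 ± 0.08, adjusted p = 7.1e-07 for PDK4-IN). Tagln, an actin-binding protein of smooth muscle, had 750.4, 752 and 879 CPM in Young against 182, 200 and 209 in PDK4-IN (-2.03 ± 0.09) and 182, 174 and 179 in Aged. Myl9, a myosin light chain, fell by 1.85 and the leiomodin Lmod1 by 1.86 on the log2 scale. The tropomyosin Tpm1 had 1153, 1134 and 1224 CPM in Young and 598, 599 and 592 in PDK4-IN (adjusted p = 1.8e-05). Cnn1, smooth muscle calponin, was lower after treatment than in either group, at 5.01, 4.17 and 5.39 CPM against 19.6, 19.5 and 15.6 in Young and 9.19, 8.89 and 7.70 in Aged. The actins Acta1 (-3.35 ± 0.20) and Actg2 (-2.38 ± 0.20) fell as well, from 8.12 to 11.6 CPM and from 7.06 to 8.58 CPM in Young to at most 1.05 and 1.96 CPM in PDK4-IN. The actin genes are close in coding sequence, so their counts may share reads. Rgs5, a pericyte regulator of G protein signals, was the marker that rose (0.82 ± 0.17, adjusted p = 0.0093), from 2.88 to 3.39 CPM in Young to 4.87 to 6.09 CPM.

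Other genes that remained lower included the stem cell receptor for R-spondins Lgr5, at 14.7, 14.9 and 13.5 CPM in Young, 2.66, 1.91 and 2.67 in PDK4-IN and 0.788, 1.07 and 1.11 in Aged. Its level after treatment was below Young (-2.60 ± 0.15, adjusted p = 1.8e-05) and above Aged (1.30 ± 0.27, adjusted p = 0.0024). The same order was seen for Fhl1, a muscle LIM protein, at 52.3 to 63.1 CPM in Young, 14.3 to 16.3 in PDK4-IN and 7.84 to 10.3 in Aged, and for the secreted protein C1qtnf3 at 14.2 to 19.2, 4.12 to 5.01 and 1.84 to 3.04 CPM. The sulfatase Arsi and the receptor phosphatase Ptprz1 fell by 2.03 and 2.02 on the log2 scale. Pagr1a had the largest fitted fall (-4.33 ± 0.98, adjusted p = 0.014), but its Young libraries stood at 7.17, 14.3 and 0.617 CPM. The highest PDK4-IN library, at 0.511 CPM, was close to the lowest Young library, and the call was lost without PDK4-IN replicate 2 or 3 (adjusted p up to 0.0711).

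Among matrix and signalling genes, the WNT list had 14 of 35 tested genes lower and 1 higher (median -0.31; 9 to 14 lower without single libraries), the insulin-like growth factor axis 8 lower and 2 higher of 17 (median -0.26), and matricellular proteins 8 lower and 1 higher of 17 (median -0.37). Sfrp1, a secreted WNT antagonist, had 61.0, 58.9 and 51.9 CPM in Young, 23.9, 21.1 and 20.5 in PDK4-IN and 12.8, 15.03 and 14.3 in Aged. Bmp4 stood at 42.1, 40.1 and 40.0 CPM in Young and 15.2, 17.2 and 16.5 in PDK4-IN (-1.34 ± 0.08), near the 11.9 to 15.3 CPM of Aged. Collagen chains were split, with 5 higher and 11 lower of 34 (median -0.12; 3 to 5 and 8 to 14 without single libraries), and elastic fibre genes had 2 higher and 7 lower of 19 (median -0.10). Timp3, an inhibitor of metalloproteinases, fell from 562, 567 and 449 CPM to 197, 172 and 159 CPM (-1.60 ± 0.11), against 138 to 143 CPM in Aged. Col10a1 (-1.11 ± 0.07), Col8a1 (a mean of 294 CPM in Young against 150.0 in PDK4-IN) and the elastic fibre protein Fbln5 (-0.88 ± 0.07) were also lower. Col1a1 lay at 3161, 3172 and 2940 CPM in Young and 2838, 2732 and 2566 in PDK4-IN, a small difference (-0.21 ± 0.06, adjusted p = 0.039) that lost its call without any of Young replicates 1 and 2 and PDK4-IN replicates 2 and 3 (adjusted p up to 0.14) and once the trend with gene length was removed (-0.09, adjusted p = 0.0928). Col3a1, at 289, 288 and 285 CPM in Young, 219, 222 and 200 in PDK4-IN and 243 to 250.5 in Aged, was lowest after treatment. Aspn, a leucine-rich proteoglycan, fell by 1.57, the complement component C4b by 1.59, the growth factor Tgfb3 by 0.85 and the receptor Pdgfrb by 0.61 on the log2 scale, and all of these lay between Young and Aged in mean level. Fibroblast markers as a list were 4 higher and 4 lower of 15 tested (1 to 4 and 3 to 6 without single libraries).

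Macrophage genes stood well above Young after treatment, at a small share of their Aged level. Of 19 monocyte and interstitial macrophage markers, 5 had a mean of at least 1 CPM in Young, 12 in PDK4-IN and 16 in Aged. Only 13 passed the filter on low counts, which some did through the PDK4-IN libraries, so no count of calls is given for them. The summed level of the 19 was 55.2 to 64.1 CPM in Young, 160 to 177 CPM in PDK4-IN and 4710 to 4764 CPM in Aged. Adgre1, the macrophage surface protein F4/80, had 0.252, 0.232 and 0.565 CPM in Young, 7.52, 7.84 and 7.66 in PDK4-IN and 498, 512 and 501 in Aged. The treated libraries did not overlap with Young and lay far below Aged (-6.03 ± 0.06 on the log2 scale). Lyz2, lysozyme, had 5.15, 5.85 and 9.46 CPM in Young, 66.6, 78.0 and 75.6 in PDK4-IN and 2711, 2650 and 2728 in Aged. Marco, a scavenger receptor of alveolar macrophages, rose by 4.89 on the log2 scale against Young, the cathepsin Ctss by 4.67, the chemokine Ccl6 by 4.32, the macrophage elastase Mmp12 by 3.86, Laptm5 by 3.71, the chemokine Ccl3 by 3.65, the fatty acid receptor Cd36 by 3.48 and Mpeg1 by 2.63. Each of these was at 1.95 CPM or less in every Young library, at 3.37 to 22.1 CPM in PDK4-IN and at 146 to 859 CPM in Aged. Adgre1 and others of these genes passed the filter on low counts through the PDK4-IN libraries, and all 10 were also called higher against Young with no filter.

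The share of the Aged level that these genes reached was much alike from gene to gene. It was read over 99 genes chosen for a level of at least 20 CPM in Aged and under 1 CPM in Young, so their low Young level is set by the choice, while PDK4-IN was not used in it. In PDK4-IN they stood at a median of 2.10% of the Aged level, with quartiles of 1.74% and 2.73%. The 3 treated libraries taken singly had medians of 2.10%, 2.15% and 2.16%, against 0.282%, 0.364% and 0.346% in the Young libraries. The share lay between 1 and 4% for 83 of the 99 genes and above 10% for 2, the neuropeptide Npy (15.9%) and Rasgef1b (11.3%), which were singled out after their values were seen. The share is given as a measurement, and its source was not tested.

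**Figure D3:**
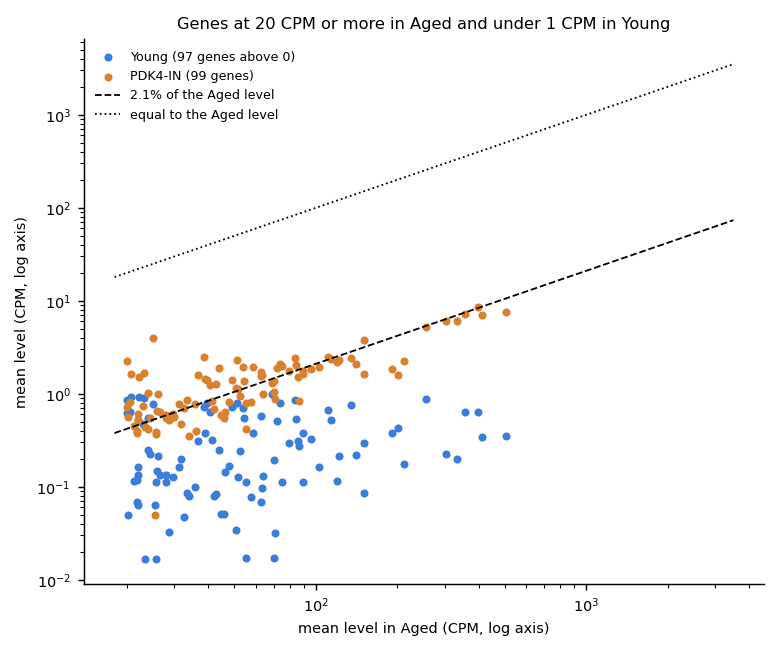
Mean level in PDK4-IN (99 genes) and in Young (97 genes above 0) against the mean level in Aged, both in CPM on log axes, for genes at 20 CPM or more in Aged and under 1 CPM in Young; each point is a gene. The PDK4-IN points follow the dashed line at the median of 2.10% of the Aged level, and the dotted line marks equality with Aged.

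Several other remaining rises stood near the Aged level or above it. Angptl4, a secreted inhibitor of lipoprotein lipase, had 37.6, 35.6 and 35.4 CPM in Young, 140, 158 and 150 in PDK4-IN and 142, 145 and 150 in Aged. It rose by 2.02 ± 0.08 on the log2 scale against Young (adjusted p = 3.5e-06), and the treated and vehicle libraries overlapped. Lcn2, the iron-binding acute-phase protein lipocalin 2, had 276, 267 and 292 CPM in Young, 906, 992 and 1036 in PDK4-IN and 697, 685 and 702 in Aged. After treatment it was above Young (1.79 ± 0.08, adjusted p = 6.7e-06) and above Aged (0.50 ± 0.06, adjusted p = 3.3e-05). S100a8, a calcium-binding alarmin, followed the same order with 8.12 to 10.5 CPM in Young, 58.0 to 74.1 in PDK4-IN and 34.4 to 41.6 in Aged (2.81 ± 0.13 against Young). Saa3, an acute-phase serum amyloid, stood at 1145, 1078 and 1300 CPM in Young and at 3314, 3992 and 4409 in PDK4-IN, beside 3343, 3132 and 3210 in Aged. The stromelysin Mmp3 rose by 1.56, the lipid droplet protein Plin2 by 1.29, the proteoglycan Dcn by 1.21 and the growth factor Gdf10 by 1.17 on the log2 scale, and of these Mmp3, Plin2 and Gdf10 did not pass the test against Aged while Dcn was higher (0.19 ± 0.04).

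The secretory list was mixed. Of 68 tested SASP factors, 29 rose and 13 fell against Young (median 0.19; 20 to 31 and 8 to 16 without single libraries), where Aged had 40 and 17 of 69 (median 0.47). The 29 include Mmp12, named above among the macrophage genes. Il1b, a tested factor at 0.0774 CPM in Young and 0.820 in PDK4-IN, passed the filter on low counts only through PDK4-IN. For such a gene only a rise could be called. Areg, the growth factor amphiregulin, had 6.71, 7.38 and 7.86 CPM in Young, 19.4, 22.1 and 19.7 in PDK4-IN and 37.4, 35.8 and 34.1 in Aged. The matrix cytokine Spp1 had 3068, 3130 and 3481 CPM in Young, 5817, 5678 and 5764 in PDK4-IN and 7282, 7126 and 7289 in Aged (0.81 ± 0.07 against Young). The chemokine Cxcl1 rose by 0.64 ± 0.06. Il6 stood at 21.1, 20.7 and 22.6 CPM in Young and 23.02, 21.5 and 25.5 in PDK4-IN, with overlapping libraries (0.10 ± 0.09, adjusted p = 0.48), while Aged had 43.6 to 45.4 CPM. Among the factors that fell, Igfbp2 went from 19.7, 20.0 and 19.7 CPM to 7.72, 8.24 and 9.69 CPM, and the chemokine Ccl20 from 79.2, 70.1 and 82.1 CPM to 36.9, 38.6 and 43.4 CPM.

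Interferon genes did not stay up. In Aged 27 of 33 rose against Young (median 0.86), whereas in PDK4-IN 6 of 32 fell and none rose (median -0.11; 3 to 8 fell and 0 to 2 rose without single libraries). Ifit3, an interferon-induced antiviral protein, had 41.4, 38.5 and 35.3 CPM in Young and 19.1, 18.99 and 24.0 in PDK4-IN (-0.91 ± 0.11, adjusted p = 8.0e-04), and Ifit1 had 46.5, 38.8 and 31.0 CPM against 24.6, 22.4 and 23.9 (-0.74 ± 0.13). Both lay below Young in each treated library. In the NF-kB list 6 rose and 3 fell of 21 (median 0.08; 3 to 7 and 0 to 4 without single libraries). Nos2, the inducible nitric oxide synthase, rose from 24.98, 22.6 and 19.1 CPM to 55.2, 53.2 and 48.5 CPM (1.21 ± 0.10), against 215 to 218 CPM in Aged. The subunits Nfkb1 (-0.23 ± 0.06, adjusted p = 0.025) and Rel (-0.54 ± 0.14, adjusted p = 0.025) were lower, calls lost without any of Young replicates 1 and 2 and PDK4-IN replicates 2 and 3 (adjusted p up to 0.102 and 0.10). In the complement list 3 rose and 3 fell of 13, beside 9.61% and 11.3% of all tested genes. The receptor C3ar1, at a mean of 0.760 CPM in Young and 2.41 in PDK4-IN, passed the filter on low counts through the PDK4-IN libraries. C3 was higher (0.76 ± 0.09) and the C1 inhibitor Serping1 lower (-0.58 ± 0.07). Ptges, which makes prostaglandin E2, rose from 249.7, 258 and 277 CPM to 432, 449 and 442 CPM, and Ptger4, a receptor for it, fell by 0.63 ± 0.12.

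Of the enzymes the treatment is aimed at, Pdk4 itself stayed higher than in Young. It had 26.1, 26.6 and 23.4 CPM in Young, 63.1, 61.3 and 56.4 in PDK4-IN and 79.3, 75.6 and 71.2 in Aged. The difference from Young was 1.22 ± 0.08 on the log2 scale (adjusted p = 2.5e-05), and the level was below Aged (-0.32 ± 0.06, adjusted p = 0.0015). Pdk1 stood at 32.4, 33.2 and 30.0 CPM in Young, 57.7, 51.8 and 46.2 in PDK4-IN and 79.0, 75.9 and 77.1 in Aged (0.68 ± 0.09 against Young). Pdk2 was higher after treatment (0.41 ± 0.09, adjusted p = 0.015), a call lost without Young replicate 1, Young replicate 2 or PDK4-IN replicate 2 (adjusted p up to 0.0864), and Pdk3 gave -0.10 ± 0.08 (adjusted p = 0.36). Over the 14 genes of the kinases and the complex, 3 rose and 1 fell (2 to 4 and 0 to 1 without single libraries), the fall being that of the catalytic subunit Pdha1 (-0.24 ± 0.06, adjusted p = 0.016, and up to 0.0774 without single libraries). These are transcript levels, which do not measure the activity that the compound inhibits.

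Of 24 genes of glycolysis and lactate handling, 16 rose and 1 fell (median 0.37; 12 to 18 rose without single libraries), where Aged had 19 higher and none lower (median 0.48). Among the 24, Hk3, at a mean of 0.0323 CPM in Young and 0.874 in PDK4-IN, passed the filter on low counts only through PDK4-IN. For that gene only a rise could be called. Slc16a3, a lactate exporter, had 80.8, 84.8 and 83.2 CPM in Young, 159, 166 and 168 in PDK4-IN and 250 to 255 in Aged. It was higher than in Young after treatment (0.97 ± 0.06, adjusted p = 2.5e-05) and lower than in Aged (-0.60 ± 0.05). The lactate dehydrogenase subunit Ldha had 1346, 1352 and 1546 CPM in Young and 1754, 1903 and 1919 in PDK4-IN (0.37 ± 0.08, adjusted p = 0.0098), a call lost without Young replicate 1, Young replicate 2 or PDK4-IN replicate 2 (adjusted p up to 0.0609). Its partner Ldhb was higher than in either group, with 73.7, 78.3 and 86.3 CPM in Young, 109, 120.2 and 120.4 in PDK4-IN and 71.0 to 75.5 in Aged (0.53 ± 0.08 against Young). The importer Slc16a1 gave -0.03 ± 0.07 (adjusted p = 0.79), with 64.9 to 69.1 CPM after treatment overlapping the 65.9 to 70.2 CPM of Young. The aldolase Aldoc rose by 1.42 ± 0.15, and the gene of the list that fell was the hexokinase Hk2 (-0.24 ± 0.06, adjusted p = 0.026, lost without any of Young replicates 1 and 2 and PDK4-IN replicates 2 and 3, at up to 0.102, and once the trend with gene length was removed, at -0.13 and 0.12).

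Transcripts of cholesterol synthesis genes moved in opposite directions against Young in the treated and the vehicle group. In PDK4-IN 14 of 24 genes rose and none fell (median 0.32), and leaving out a library gave 6 to 14. In Aged 21 of 24 fell and none rose (median -0.46). Msmo1, a demethylating oxidase of the sterol pathway, had 67.3, 63.0 and 75.3 CPM in Young, 106, 103 and 112 in PDK4-IN and 38.8, 40.1 and 39.9 in Aged (0.62 ± 0.08 against Young, adjusted p = 0.0011). Insig1, the sterol-sensing brake of the pathway, rose as well (0.47 ± 0.07, adjusted p = 0.0021). Fatty acid oxidation had 8 higher and none lower of 19 (median 0.29), with the carnitine transferases Cpt1a (0.53 ± 0.09) and Cpt2 (0.46 ± 0.07) among them, and leaving out a library gave 2 to 11. Fatty acid and lipid storage had 12 higher and none lower of 24 (7 to 11 and 0 to 3 without single libraries). Its largest rise was that of Cd36, which passed the filter on low counts through the PDK4-IN libraries.

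Antioxidant genes under NRF2 rose, 17 of 26 with none lower (median 0.36, 11 to 20 without single libraries), beside 18 higher and 3 lower in Aged. Hmox1, heme oxygenase, had 634, 630.0 and 643 CPM in Young, 953, 950 and 957 in PDK4-IN and 1162, 1148 and 1180 in Aged (0.56 ± 0.05, adjusted p = 0.00019). Srxn1, sulfiredoxin, rose by 0.70 ± 0.06. Gpx3, a secreted glutathione peroxidase, was new after treatment, with 148, 156 and 159 CPM in Young, 250.5, 257 and 263 in PDK4-IN and 124 to 130 in Aged (0.71 ± 0.06 against Young). Among NADPH oxidase genes, Rac2, a phagocyte subunit, had 0.0505, 0.139 and 0.154 CPM in Young, 2.20, 1.66 and 2.67 in PDK4-IN and 117 to 122 in Aged. Nox4, the oxidase of fibroblasts, gave -0.16 ± 0.13 (adjusted p = 0.39), and Nox1, at no more than 0.307 CPM in these 6 libraries, was not tested. Lysosomal cathepsins and hydrolases had 12 higher and none lower of 25 (median 0.26), and 4 to 13 higher without single libraries. The 12 include Ctss, at a mean of 0.226 CPM in Young and 6.10 in PDK4-IN, which passed the filter on low counts only through PDK4-IN. Nuclear genes of oxidative phosphorylation, 26 of 37 of which were lower in Aged, showed 2 lower and none higher (median 0.06), Uqcrc2 and Ndufs1, whose calls were lost without single libraries (adjusted p up to 0.14 and 0.0736). This count moved to 22 higher and 2 lower without both libraries that stood apart, and to none higher and 5 lower once the trend with gene length was removed (medians 0.24 and -0.06). The tricarboxylic acid cycle had 1 higher and 4 lower of 20, with 2 to 6 lower without single libraries. The shares over all tested genes were 9.61% higher and 11.3% lower. Ribosomal protein genes had 57 of 79 lower in Aged, but 1 higher and none lower after treatment (median 0.14), Rps20, at 530.3, 511 and 656 CPM in Young and 712, 835 and 890 in PDK4-IN (adjusted p = 0.016, and up to 0.0767 without single libraries). That list is short in transcript length (median 780 bases against 2810 over all tested genes), and its count moved between 77 higher without both libraries that stood apart, 36 higher under the replicate block and 11 lower once the trend with gene length was removed. Slopes of log2 CPM on log2 length were 0.10, 0.09 and -0.04 in the Young libraries and 0.02, -0.07 and -0.11 in the PDK4-IN libraries, and their part in the lists was not tested beyond that alternative.

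**Figure D4:**
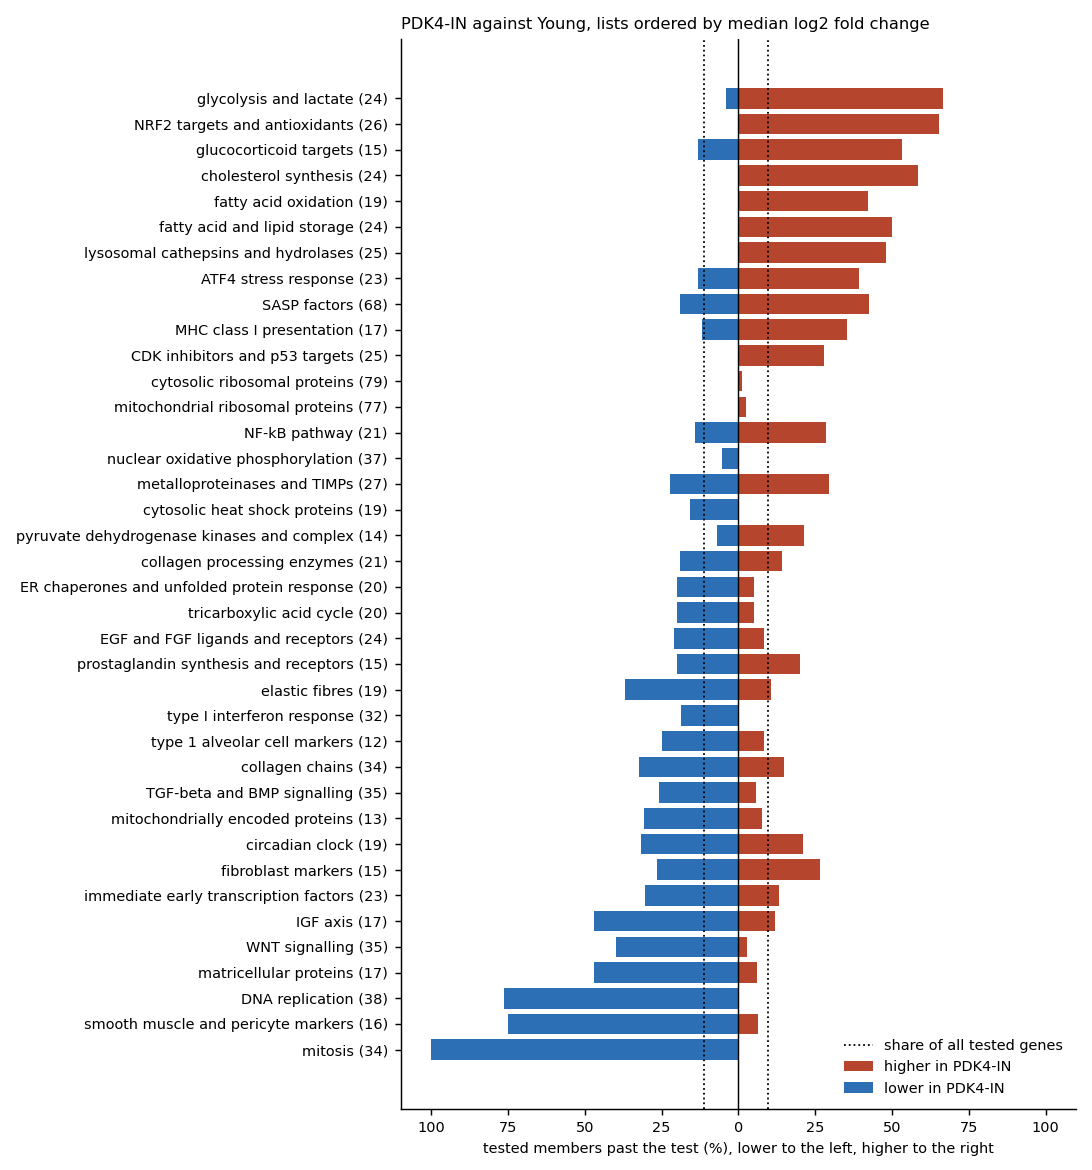
Share of tested members past the test in PDK4-IN against Young for 38 lists with at least 10 tested genes (number in brackets) that make up at least 80% of the genes listed, lower to the left and higher to the right, ordered by the median log2 fold change. Dotted lines mark the shares over all tested genes, 9.61% higher and 11.3% lower, and the mitosis list reaches 100% on the lower side.

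Inhibitors of the cell cycle and p53 targets changed by a smaller median than the mitosis genes. Of 25 CDK inhibitors and p53 targets, 7 rose and none fell (median 0.15; 2 to 9 rose without single libraries, and 14 rose and 4 fell without both libraries that stood apart), and in Aged 5 rose and 12 fell (median -0.15). Against Aged, 16 of the 25 were higher after treatment and 4 lower (median 0.18). Cdkn1c, the inhibitor p57, had 4.59, 4.97 and 3.803 CPM in Young and 11.6, 9.49 and 10.6 in PDK4-IN (1.22 ± 0.15, adjusted p = 0.00061), overlapping the 10.01 to 10.95 CPM of Aged. Cdkn2b rose by 0.30 ± 0.07 (adjusted p = 0.018), a call lost without any of Young replicates 1 and 2 and PDK4-IN replicates 2 and 3 (adjusted p up to 0.10). Cdkn2a, which encodes p16, had 108, 119 and 135 CPM in Young and 134, 150.3 and 159 in PDK4-IN, and the groups overlapped (0.27 ± 0.10, adjusted p = 0.083). It was lower in Aged, at 73.5 to 76.3 CPM. Cdkn1a, which encodes p21, gave 0.12 ± 0.06 (adjusted p = 0.17) with 1064 to 1118 CPM in Young and 1174 to 1213 in PDK4-IN. Its mean in Aged was 939 CPM. The proapoptotic p53 target Bbc3 rose by 0.50 ± 0.10 (adjusted p = 0.0088).

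Clock genes moved in both directions. In the circadian loop the activators Arntl and Clock or Npas2 switch on the Per and Cry genes, whose proteins in turn shut the activators off. Of 19 tested clock genes, 4 rose and 6 fell against Young, and 2 rose and 4 to 7 fell without single libraries. The activator Arntl had 32.7, 30.0 and 25.2 CPM in Young, 56.1, 51.7 and 50.7 in PDK4-IN and 54.4, 49.5 and 52.3 in Aged (0.83 ± 0.10, adjusted p = 0.00062), and Npas2 rose from 1.18 to 1.72 CPM to 3.12 to 3.57 CPM (1.15 ± 0.23). The repressor Per2 had 11.2, 11.3 and 9.05 CPM in Young, 5.78, 3.92 and 3.51 in PDK4-IN and 6.64, 7.08 and 8.38 in Aged (-1.28 ± 0.19, adjusted p = 0.0019). Cry1 had 12.9, 11.8 and 14.8 CPM in Young, 7.06, 6.83 and 7.37 in PDK4-IN and 12.5 to 13.5 in Aged (-0.92 ± 0.12, adjusted p = 0.0011), so its fall was new. Ciart, a repressor of the clock, fell by 0.91 ± 0.21, Per3 by 0.52 ± 0.10 and Tef, a transcription factor under clock control, by 0.37 ± 0.07. Nr1d1, a repressor of Arntl, was higher at 0.25 ± 0.07 (adjusted p = 0.041), a call lost without any 1 of the 6 libraries (adjusted p up to 0.14). Per3 lost its call without PDK4-IN replicate 2 (adjusted p = 0.0543). The hour at which the lungs were taken is not given in the sources used here, and its part in these values was not tested.

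**Figure D5:**
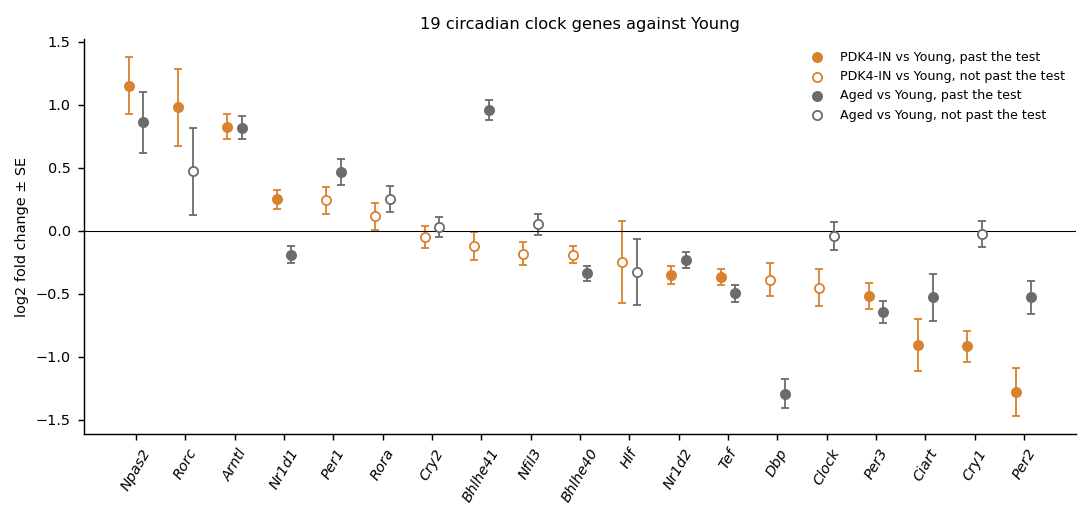
Log2 fold change with its standard error for 19 clock genes in PDK4-IN against Young and in Aged against Young (both share the 3 Young libraries); filled symbols passed the test. Arntl and Npas2 lay at the upper end and Per2 and Cry1 at the lower end for PDK4-IN.

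New rises were fewer and smaller than new falls. Ccl11, the eosinophil chemokine eotaxin, had 26.7, 30.1 and 37.6 CPM in Young, 87.8, 84.8 and 96.6 in PDK4-IN and 40.2, 36.0 and 37.0 in Aged (1.49 ± 0.12 against Young, adjusted p = 8.5e-05). Ctla2a, an inhibitor of cysteine proteases, had 38.2, 33.0 and 44.8 CPM in Young, 94.9, 97.8 and 99.5 in PDK4-IN and 34.5, 32.5 and 35.8 in Aged (1.31 ± 0.11). Cck, which encodes the peptide hormone cholecystokinin, had 136, 134 and 169 CPM in Young, 272, 303 and 326 in PDK4-IN and 143 to 147 in Aged (1.01 ± 0.11). For all 3 the treated libraries were apart from both other groups, as the rule that named them required. Crct1 had 15.1, 15.8 and 18.2 CPM in Young, 32.1, 40.8 and 37.1 in PDK4-IN and 6.48 to 7.43 in Aged, and the carboxypeptidase Cpz rose by 1.53 ± 0.16. The galectin Lgals4 rose by 1.77 ± 0.36. Asic1, Serpinc1, Nap1l5 and Hoxb3os, all at 5.24 CPM or less, completed the 10 by rule, and each lost its call without 3 or 4 of the 6 libraries in turn (adjusted p up to 0.0784, 0.0853, 0.0975 and 0.0845).

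Pilra, an inhibitory receptor of myeloid cells, was lower in PDK4-IN than in Young, where the macrophage genes named above were higher. It had 3.94, 4.18 and 4.68 CPM in Young, 0.767, 0.402 and 0.593 in PDK4-IN and 16.99, 16.5 and 16.2 in Aged. It was thus below Young after treatment (-2.87 ± 0.27, adjusted p = 0.00016) and above Young in Aged (1.95 ± 0.10). Of 11 neutrophil markers, S100a8 among them, 2 reached a mean of 1 CPM in Young and 3 in PDK4-IN, and of 12 alveolar macrophage markers 1 and 3 did. Of each of these lists 4 genes passed the filter on low counts, so no count of calls is given. Immediate early transcription factors had 3 higher and 7 lower of 23 (0 to 3 and 5 to 9 without single libraries), with Nr4a1 falling from 46.4, 46.6 and 49.2 CPM to 25.7, 25.1 and 24.8 CPM and Egr1 from 80.9, 92.7 and 92.2 CPM to 55.3, 51.1 and 47.3 CPM. Of 20 endothelium markers, 5 reached a mean of 1 CPM in Young and 8 in PDK4-IN. Only 12 passed the filter on low counts, so no count of calls is given. Type 1 alveolar markers had 1 higher and 3 lower of 12, beside 9.61% and 11.3% of all tested genes. Vwf, the clotting factor carrier of endothelium, rose from 0.925 to 1.56 CPM to 2.36 to 2.97 CPM, beside 9.16 to 9.98 CPM in Aged, a call lost without Young replicate 2 or PDK4-IN replicate 3 (adjusted p up to 0.0673). The membrane protein Cav1, which fibroblasts also express, fell from 524 to 549 CPM to 315 to 349 CPM (-0.73 ± 0.06), and Pdpn, podoplanin, rose from 230.4 to 235 CPM to 364 to 388 CPM (0.68 ± 0.06). Genes of the ATF4 stress response had 9 higher and 3 lower of 23, but 1 to 13 higher and 0 to 4 lower without single libraries, with the kinase-like Trib3 higher (0.66 ± 0.08) and the serine synthesis enzyme Psat1 lower (-0.28 ± 0.06, lost without Young replicate 2 or PDK4-IN replicate 2, at up to an adjusted p of 0.0599).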

How the data were processed

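RNA from laser-captured mouse lung was sequenced in 3 groups of 3 libraries. The authors deposited 2 tables with expected counts, TPM (transcript share scaled to a common sum) and gene length for 55414 genes (1401 without a symbol), made per the labels' processing notes with Bowtie 0.12.2 on GRCm39; the program that counted and the annotation release are not given in the sources used here. The deposited expected counts were rounded to whole numbers, and the deposited TPM values entered no fit. Sheet names in the tables speak of other treatments, so the groups rest on the column names. The 3 Aged columns held the same values in both tables and were used once.

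Counts scaled to 1000000 per library (CPM) are shown. Each comparison was fitted on its own 6 libraries with edgeR 4.0.16 in R 4.3.3 (filterByExpr, TMM scaling, quasi-likelihood test, Benjamini-Hochberg adjustment over all tested genes, threshold 0.05; SE from the log2 fold change and its F statistic). The procedure was tested on simulated data with the same spread for all genes and libraries. These held no outlying library and no trend with gene length, so the test did not cover those features. Alternatives were DESeq2 1.42.0, its scaling within edgeR, no filter, all 9 libraries, a replicate block, removal of the gene-length trend, leaving out libraries and, for counts over all genes, a 2-fold minimum. Members and the 55 gene lists were chosen with earlier results of these data known. Genes were named by rank among called genes with at least 50 counts in the higher group and groups that did not overlap, by lowest p within a list, or as targets of the study. Top2a, Cnn1, Lmod1, Myl9, Tpm1, Saa3, Ciart, Per3, Tef, Nr1d1, Npy and Rasgef1b were named after their values were seen. Library totals of 19456303 counts or more put the floor, 3 counts over a group, at 0.0493 CPM in Young and 0.0503 CPM in PDK4-IN, which covers counting error only.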

Additional observations from a re-analysis of the deposited data

How the results depend on the processing

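Of 131 genes named, 125 were called in PDK4-IN against Young, and 105 of these were called with the same sign in every alternative fit (a 2-fold minimum was applied only to counts over all genes). Whether the replicate numbers pair the libraries was not settled. Deviations of same-numbered Young and PDK4-IN libraries correlated at 0.12, -0.02 and 0.18. Those of differently numbered libraries correlated at -0.23 to 0.13, and PDK4-IN replicate 1 correlated best with Young replicate 2. With the replicate block, PDK4-IN against Young gave 2605 higher and 3022 lower genes, and new genes were 1257 higher and 1613 lower. Without the libraries that stand apart, an alternative chosen after seeing the data, the counts were 3408 and 3965, with 2319 and 2514 new and 1711 remaining lower. With no filter on low counts 1473 genes were new and lower, as against 959.

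At a 2-fold minimum, counts of higher and lower genes were 356 and 301 in PDK4-IN against Young, 1504 and 272 in Aged against Young and 224 and 1228 in PDK4-IN against Aged, with 252 and 80 remaining and 31 and 155 new. Leaving out single libraries gave 637 to 2244 higher and 801 to 2703 lower genes in PDK4-IN against Young, 453 to 1086 and 475 to 1374 remaining and 213 to 1184 and 381 to 1592 new. New genes were 1005 higher and 1521 lower without PDK4-IN replicate 1, and fell to 482 lower or fewer without Young replicate 1 or 2 or PDK4-IN replicate 2 or 3. The cause was not tested. Cck in Aged against Young, -0.02 and not called, was 0.092 without Young replicate 3, alone or with PDK4-IN replicate 1, and -0.086 without Young replicate 2. Saa3 in PDK4-IN against Aged went from 0.28 to -0.045 once the gene-length trend was removed, and no longer passed. With 3 libraries a group, single outlying values were not tested.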
